A study of Mus musculus with 9 samples.

Results

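The genes described here are 41 interferon response and cytosolic nucleic acid sensing genes of the mouse, chosen by name from a list and found by symbol among the 49315 genes of the count table. RNA-seq was performed on 9 libraries of cells sorted from co-cultures, with 3 libraries in each of 3 groups. Astrocytes were primary neonatal cells of C57BL6 mito::mKate2 mice, in which the broadly active CAG promoter drives the red fluorescent protein mKate2 into mitochondria. SB28, a mouse glioblastoma cell line that carries green fluorescent protein, was co-cultured with these astrocytes 1:1 over 2 days and then sorted into mKate2+ SB28 cells, which carried astrocyte-derived mKate2 signal, and mKate2- SB28 cells, which did not. No group received a further treatment, and each of the 3 groups came from co-culture, so cells cultured alone are not part of the comparisons. The 3 replicates were distinct co-cultures of 1 tumor line. Total counts ranged from 24454561 to 39287841 per library, and levels are given below as CPM, counts scaled to a library total of 1000000.

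Cells detect DNA in the cytosol, including DNA that leaks from mitochondria, with the enzyme cGAS, whose product activates the adaptor STING, encoded by Tmem173. Double-stranded RNA is detected by RIG-I, encoded by Ddx58, and by MDA5, encoded by Ifih1, which signal through MAVS on the outer mitochondrial membrane. Both routes activate the kinase TBK1 and the factor IRF3 and lead to transcription of type I interferon genes. Secreted interferon binds the receptor formed by IFNAR1 and IFNAR2, and the JAK kinases then activate STAT factors, of which STAT2 joins IRF9 in the complex ISGF3. ISGF3 binds the interferon-stimulated response element (ISRE) upstream of many antiviral genes, whereas the gamma-activated site (GAS) is bound by factors activated after interferon-gamma. Astrocytes are known to express these sensors and to produce the chemokine CXCL10 when stimulated.

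To show what the interferon-responsive genes have in common at the sequence level, the 250 bases upstream of RefSeq transcript starts (GRCm38.p6) were searched on both strands for the ISRE core GAAANNGAAA, which reads TTTCNNTTTC on the other strand, and for the GAS core TTCNNNGAA, which reads the same on both strands. Of the 41 genes, 31 were in the promoter table. The ISRE core was present upstream of 13 of them (41.9%), compared with 3.46% of the 27025 genes in the table. The GAS core was present upstream of 6 (19.4%), compared with 8.13% of all genes in the table. The 13 genes with an ISRE core were Stat2, Oas1a, Ifit1, Ifit3, Rsad2, Bst2, Ifitm2, Isg15, Gbp2, Gbp3, Igtp, Irgm1 and Cxcl10. Irf1, Eif2ak2, Oas1a, Ifit2, Bst2 and Igtp held a GAS core. A match describes the letters in this window and is not evidence of binding.

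Stretches are shown for the 4 genes holding either core with the smallest P values between mKate2- SB28 cells and astrocytes, on the strand of the gene, 5′ to 3′, with the matching letters in capitals. Ifit3 lay at chr19:34583353-34583436 on the plus strand, Cxcl10 at chr5:92349073-92349122 on the minus strand, Igtp at chr11:58199491-58199551 on the plus strand and Bst2 at chr8:71537567-71537628 on the minus strand, each upstream of the RefSeq start.
Ifit3: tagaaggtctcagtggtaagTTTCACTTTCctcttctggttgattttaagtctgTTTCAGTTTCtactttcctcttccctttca
Cxcl10: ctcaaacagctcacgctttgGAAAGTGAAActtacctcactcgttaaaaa
Igtp: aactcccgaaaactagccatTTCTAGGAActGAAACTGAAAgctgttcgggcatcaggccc
Bst2: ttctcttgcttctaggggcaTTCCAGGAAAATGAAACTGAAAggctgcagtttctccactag
Ifit3 carried 2 separate ISRE cores and Cxcl10 carried 1. In Igtp a GAS core preceded an ISRE core by a pair of bases. In Bst2 a GAS core and 2 ISRE cores overlapped, so they form a single run of capitals, and the RefSeq start used here lies upstream of the one in GENCODE.

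The sorted groups were first checked against defining cell type markers. Apoe, an abundant astrocyte lipoprotein, measured 264.8 ± 4.99 CPM in astrocytes, 2.85 ± 0.321 CPM in mKate2- SB28 cells and 2.47 ± 0.443 CPM in mKate2+ SB28 cells (mean ± SD, n = 3 in this and the following values). The 10 astrocyte markers summed to 840.6, 786.5 and 1414 CPM in the 3 astrocyte libraries, to 91.2, 127.9 and 105.2 CPM in mKate2- cells and to 93.6, 112.8 and 93.1 CPM in mKate2+ cells. The sum in SB28 cells was mostly Sox9, a transcription factor gene that these tumor cells also expressed, at 92.3 CPM in mKate2- and 86.1 CPM in mKate2+ cells. A difference in this sum between the 2 SB28 groups was not detected (exact permutation test, two-sided, P = 0.7), and each differed from astrocytes at P = 0.1, the smallest value that 3 against 3 libraries allow. Of the 12 microglial markers, 9 averaged below 1 CPM in astrocytes and 10 in each SB28 group. That list summed to 47.4 ± 9.25 CPM in astrocytes, 54.5 ± 3.86 CPM in the mKate2- and 57.0 ± 6.80 CPM in the mKate2+ libraries, mostly Tmem119, while Cx3cr1, Itgam, Tyrobp, Ptprc and the complement genes C1qa, C1qb and C1qc stayed below 0.5 CPM in each of the 9 libraries. Cd68, a lysosomal gene of macrophages, and P2ry12, a microglial receptor gene, were higher in astrocytes. Cd68 measured 15.7, 17.9 and 6.69 CPM in astrocytes and 1.54 to 3.54 CPM in the SB28 libraries, and P2ry12 measured 1.06, 2.54 and 0.484 CPM in astrocytes and at most 0.0555 CPM in the SB28 libraries. The part of these marker differences in the results was not tested. Of the 5 T cell and natural killer cell markers, 4 had no count in any library, and Klrb1c reached 0.370 CPM. The 5 oligodendrocyte markers summed to 1.53 ± 0.605 CPM in astrocytes and the 5 neuronal markers to 43.7 ± 15.9 CPM, mostly Stmn2. The neuronal list summed to 23.1 ± 3.49 CPM in mKate2- and 24.5 ± 3.03 CPM in mKate2+ cells, mostly Tubb3. Stmn2 measured 11.5, 43.4 and 38.5 CPM in astrocytes and 0.474 to 1.47 CPM in the SB28 libraries. The part of this difference in the results was not tested.

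Astrocyte replicate 3 stood apart from the other astrocyte libraries before any comparison. It was the highest of the 3 astrocyte libraries for 37 of the 41 genes, compared with 39.9% of all genes above 1 CPM in astrocytes. The bases differ, since the 41 include 8 genes below 1 CPM on average. The exceptions, Irf1, Oasl1, Ifi35 and Cxcl10, averaged above 1 CPM in astrocytes. Its level was a median of 1.55 times the mean of replicates 1 and 2 over the members above 1 CPM, and 1.02 times over all genes above 1 CPM. The astrocyte markers Aqp4 (5.64, 6.82 and 59.7 CPM), Slc1a2 (4.46, 11.3 and 56.8 CPM) and Aldoc (55.6, 33.8 and 361.8 CPM) were also higher in this library. So were Gfap, Fgfr3 and S100b and, by less, Slc1a3 (172.8, 176.9 and 235.6 CPM) and Aldh1l1 (139.7, 111.3 and 172.1 CPM). Apoe was nearly level (263.8, 260.3 and 270.2 CPM), and Sox9 was highest in replicate 1 (180.6, 172.6 and 173.0 CPM). Of the 6 endothelial markers, which summed to 7.57, 14.4 and 199.3 CPM in astrocytes, Flt1 accounted for 192.2 CPM in replicate 3. Cdh5 (0.654, 0.367 and 5.64 CPM) and Kdr (0.0818, 0.367 and 0.854 CPM) were also highest there. Pecam1 (1.02, 0.703 and 0.455 CPM) and Tek (0.164, 0.550 and 0.142 CPM) were lowest there, and Cldn5 had no count in the 3 astrocyte libraries. The part of these differences in the results was not tested, and calls that were lost without this library are named below.

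**Figure D1:**
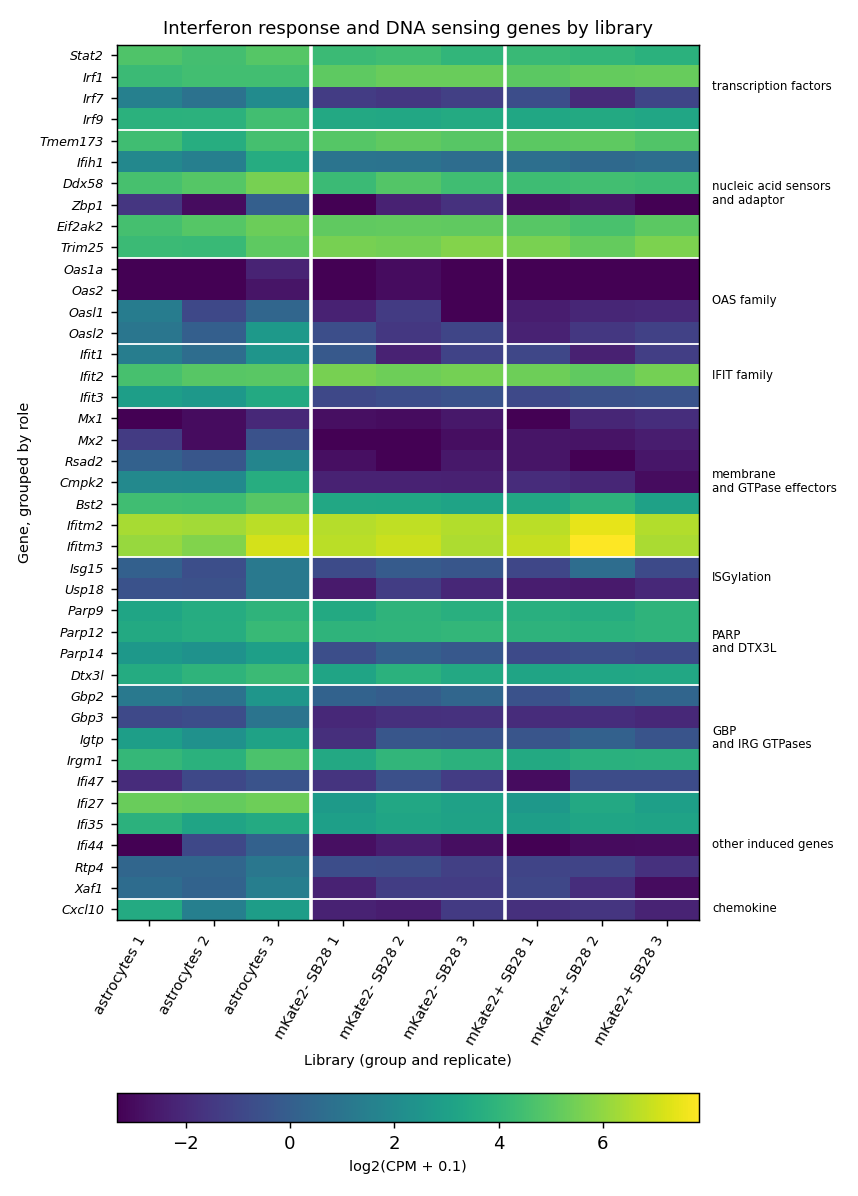
Heat map of the 41 genes (rows, grouped by role) in the 9 libraries (columns), coloured by log2(CPM + 0.1). Ifitm2 and Ifitm3 were the brightest rows in each group, and 14 genes averaged above 1 CPM in astrocytes and below 1 CPM in both SB28 groups.

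Across the 41 genes, 33 averaged above 1 CPM in astrocytes, 19 in mKate2- SB28 cells and 18 in mKate2+ SB28 cells. The 8 genes below 1 CPM on average in each of the 3 groups were Zbp1, Oas1a, Oas2, Mx1, Mx2, Gbp3, Ifi47 and Ifi44. The summed level of the 41 genes nevertheless overlapped between groups, at 506.2, 470.2 and 753.0 CPM in astrocytes, 522.3, 588.9 and 523.0 CPM in the mKate2- and 533.5, 711.9 and 506.2 CPM in the mKate2+ libraries. Ifitm2 and Ifitm3, which encode membrane proteins that block viral entry, made up much of this sum. Per length of exon, they were the 2 highest members in each group, at 134.7 ± 20.5 and 128.5 ± 67.1 RPKM in astrocytes, 152.8 ± 11.9 and 154.8 ± 27.0 RPKM in mKate2- cells and 188.3 ± 66.5 and 212.4 ± 111.5 RPKM in mKate2+ cells (CPM divided by exonic length in kilobases). Their order within a group did not differ beyond the spread between libraries. The third highest was Bst2 at 26.8 ± 6.10 RPKM in astrocytes and 12.4 ± 3.56 RPKM in mKate2+ cells, and Tmem173 at 11.6 ± 0.901 RPKM in mKate2- cells. The genes next in order did not differ from these beyond the spread between libraries, namely Ifi27 in astrocytes (26.5 ± 1.79 RPKM), Tmem173 in mKate2+ cells (11.5 ± 1.06 RPKM), and Ifit2 and Bst2 in mKate2- cells (11.5 ± 0.652 and 10.8 ± 0.771 RPKM).

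To ask which of these genes differed between tumor cells and astrocytes, each SB28 group was compared with the same 3 astrocyte libraries, so the 2 comparisons are not independent. A gene was called when its adjusted P value was under 0.05 and its log2 fold change exceeded 1 in size. In mKate2- cells 16 of the 31 members tested were lower, against 22.4% of the 13356 genes tested, and 1 was higher, against 11.5%. In mKate2+ cells 16 of the 32 members tested were lower, against 22.8% of the 13342 genes tested, and 0 were higher, against 12.2%. By adjusted P value alone, 18 members were lower (33.8% of all genes) and 4 higher (29.3%) in mKate2- cells, and 19 were lower (32.1%) and 4 higher (28.0%) in mKate2+ cells. The same 4 genes, Irf1, Tmem173, Trim25 and Ifit2, were above each astrocyte library in each of the 6 SB28 libraries, and 18 of the 32 members tested in either comparison were below, compared with 27.6% and 34.8% of all genes tested. The median log2 fold change over the members tested was -1.30 in mKate2- and -0.84 in mKate2+ cells, against -0.04 and -0.02 over all genes tested. In each comparison these medians include 12 members, named below, that passed the filter through astrocytes alone and so had to be lower. They are therefore not a measure of a shift in the members, and they depended on the libraries and the filter. Without astrocyte replicate 3 they were -0.43 and -0.49, without astrocyte replicate 1 they were -0.73 and -0.76, and with no filter on low counts they were -1.54 and -1.91. In mKate2+ cells the median was -1.32 without mKate2+ replicate 2 and -1.32 with a gene length trend removed.

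These shares need the filter beside them, since a gene was tested when at least 2 of 6 libraries exceeded 1 CPM. In mKate2- cells, 12 of the 16 lower genes had no tumor library above 1 CPM, passed through astrocytes and so had to be lower. They were Irf7, Oasl1, Oasl2, Ifit1, Ifit3, Rsad2, Cmpk2, Parp14, Igtp, Rtp4, Xaf1 and Cxcl10, and they were the same 12 in mKate2+ cells. Among the members with at least 1 tumor library above 1 CPM, 4 of 19 were lower in mKate2- cells and 4 of 20 in mKate2+ cells, namely Ifih1, Bst2, Gbp2 and Ifi27 in both. Under the same restriction 13.5% of 11894 genes were lower in mKate2- and 13.6% of 11815 genes in mKate2+ cells. The same 12 genes are also among those lower by adjusted P value alone and among the 18 below each astrocyte library. The others were Stat2, Irf9, Ifih1, Bst2, Gbp2 and Ifi27, with Dtx3l added by adjusted P value in mKate2+ cells. The share of all genes was not restricted for these counts, so they do not show an excess. In bulk libraries, fewer cells expressing a gene and less RNA per cell cannot be told apart.

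**Figure D2:**
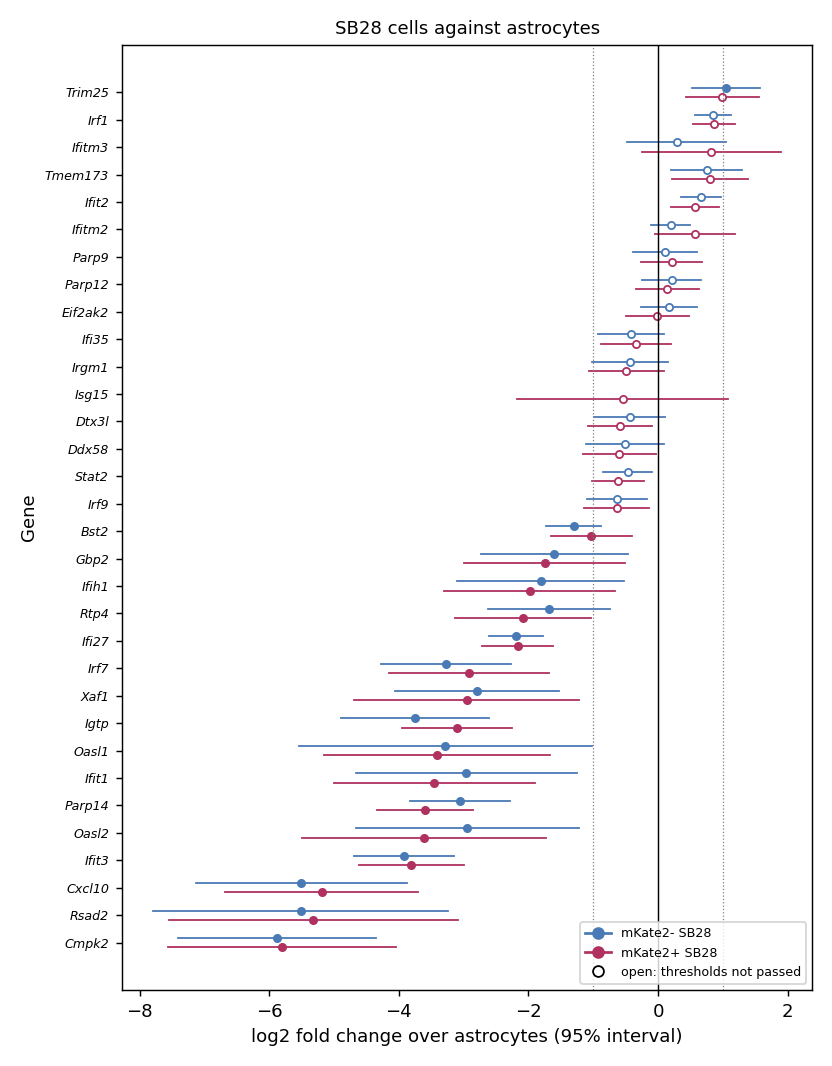
Log2 fold change of each tested gene over astrocytes in mKate2- and mKate2+ SB28 cells, with 95% intervals; filled points passed both thresholds. Cmpk2 and Cxcl10 are among the points below -5 in both comparisons, while Trim25, Irf1, Tmem173 and Ifit2 lie above 0 with intervals that exclude it.

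Among the sensors, Tmem173, which encodes the adaptor STING, was higher in SB28 cells. It measured 21.4, 12.3 and 23.4 CPM in astrocytes, 30.1, 34.5 and 30.5 CPM in the mKate2- and 32.7, 33.6 and 28.2 CPM in the mKate2+ libraries. The SB28 libraries did not overlap the astrocyte libraries. The log2 fold change was 0.75 ± 0.24 (SE; edgeR adjusted P = 0.0256) in mKate2- and 0.80 ± 0.25 (edgeR adjusted P = 0.0254) in mKate2+ cells, below the fold threshold. The edgeR adjusted P value rose above 0.05 without any 1 of the mKate2- libraries (0.0563, 0.0813 and 0.0547 without replicates 1, 2 and 3), and without mKate2+ replicate 1 (0.0612) or 2 (0.0739), while the log2 fold change stayed between 0.49 and 0.95 in the alternative fits. Trim25, the ubiquitin ligase that activates RIG-I, measured 19.2, 18.7 and 33.3 CPM in astrocytes, 47.1, 44.8 and 54.2 CPM in the mKate2- and 48.3, 36.5 and 50.2 CPM in the mKate2+ libraries. Its log2 fold change sat at the threshold, at 1.05 ± 0.23 (edgeR adjusted P = 0.00467) in mKate2- and 0.99 ± 0.24 (edgeR adjusted P = 0.00943) in mKate2+ cells. It fell below 1 in mKate2- cells without astrocyte replicate 1 (0.92) or 2 (0.89) or mKate2- replicate 3 (0.98), and rose above 1 in mKate2+ cells without astrocyte replicate 3 (1.29) or mKate2+ replicate 2 (1.10).

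Ifih1, the gene of the RNA sensor MDA5, was lower in SB28 cells. It measured 3.56, 2.75 and 12 CPM in astrocytes, 1.84, 1.78 and 1.51 CPM in the mKate2- and 1.61, 1.30 and 1.49 CPM in the mKate2+ libraries. The log2 fold changes were -1.81 ± 0.56 (edgeR adjusted P = 0.0219) and -1.98 ± 0.57 (edgeR adjusted P = 0.0181), and the call did not hold for each subset of libraries. In mKate2- cells it was lost without astrocyte replicate 3 (-0.87) and without mKate2- replicate 1, 2 or 3 (-1.86, -1.84 and -1.72), and in mKate2+ cells without replicate 2 or 3 of that group (-1.92 and -1.98). The call in mKate2+ cells held without astrocyte replicate 3, at -1.06 (edgeR adjusted P = 0.0255). Ddx58, the gene of RIG-I, measured 24.3, 29.7 and 47.4 CPM in astrocytes, 19.8, 29.0 and 21.2 CPM in the mKate2- and 20.7, 22.0 and 20.7 CPM in the mKate2+ libraries, and passed the test in neither comparison (edgeR adjusted P = 0.118 and 0.063). Zbp1, a sensor of Z-form nucleic acids, was near the limit of detection, with 6, 1 and 33 counts in astrocytes, 0, 4 and 6 in mKate2- cells and 1, 2 and 0 in mKate2+ cells. Eif2ak2, which encodes the RNA-activated kinase PKR, measured between 23.5 and 40.6 CPM in the 9 libraries and passed neither test.

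Of the transcription factors, Irf1 was higher and Irf7 lower in SB28 cells. Irf1, induced by interferon-gamma and other stimuli, measured 19.4, 21.8 and 21.7 CPM in astrocytes, 33.8, 38.9 and 39.2 CPM in the mKate2- and 32.5, 37.3 and 38.0 CPM in the mKate2+ libraries. The SB28 libraries lay above the astrocyte libraries, and the log2 fold changes of 0.85 ± 0.12 (edgeR adjusted P = 0.000589) and 0.86 ± 0.14 (edgeR adjusted P = 0.00139) kept an adjusted P value below 0.05 in each of 12 alternative fits, though below the fold threshold. Irf7, the factor that amplifies interferon transcription, measured 2.82, 1.77 and 4.04 CPM in astrocytes, 0.294, 0.251 and 0.335 CPM in the mKate2- and 0.527, 0.153 and 0.410 CPM in the mKate2+ libraries. Its log2 fold changes were -3.27 ± 0.43 (edgeR adjusted P = 0.000401) and -2.92 ± 0.53 (edgeR adjusted P = 0.00238). Exons of Irf7 overlap those of Phrf1 on the opposite strand, and the strand setting of the counting is not given in the sources used here.

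Stat2 and Irf9, subunits of ISGF3, differed by smaller amounts. Stat2 measured 27.2, 23.0 and 29.7 CPM in astrocytes, 19.6, 21.3 and 16.2 CPM in the mKate2- and 18.6, 16.8 and 14.1 CPM in the mKate2+ libraries, with log2 fold changes of -0.47 ± 0.16 (edgeR adjusted P = 0.035) and -0.61 ± 0.17 (edgeR adjusted P = 0.0171). Irf9 measured 13.9, 14.6 and 22.0 CPM in astrocytes, 10.7, 10.1 and 11.3 CPM in the mKate2- and 9.96, 10.9 and 9.77 CPM in the mKate2+ libraries, with a log2 fold change of -0.64 in both (edgeR adjusted P = 0.0243 and 0.0352). Every SB28 library lay below every astrocyte library for both genes, and neither reached the fold threshold. Irf9 shares exonic sequence with Rnf31 on the same strand, so its counts are uncertain.

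Among the antiviral effectors, members of 1 gene cluster went in opposite directions. Ifit1, Ifit2 and Ifit3, whose proteins bind foreign RNA, lie close together on chromosome 19 of GRCm38, at 34640871 to 34650009, 34550694 to 34576419 and 34583531 to 34588731. Ifit3 measured 7.52, 6.05 and 10.8 CPM in astrocytes, 0.441, 0.529 and 0.603 CPM in the mKate2- and 0.444, 0.585 and 0.614 CPM in the mKate2+ libraries. These levels were 15.2-fold and 14.0-fold lower in SB28 cells, at log2 fold changes of -3.93 ± 0.33 (edgeR adjusted P = 5.06e-05) and -3.81 ± 0.35 (edgeR adjusted P = 9.86e-05). Ifit1 measured 2.58, 1.5 and 5.58 CPM in astrocytes, 0.772, 0.111 and 0.369 CPM in the mKate2- and 0.416, 0.102 and 0.322 CPM in the mKate2+ libraries, and was also lower (log2 fold changes of -2.96 and -3.45, edgeR adjusted P = 0.00873 and 0.00313). For Ifit1 the values were -2.31 and -2.82 without astrocyte replicate 3, and -3.74 in mKate2- cells without mKate2- replicate 1.

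Ifit2 was higher in the tumor cells, at 23.7, 30.9 and 31.5 CPM in astrocytes, 46.9, 42.1 and 46.2 CPM in the mKate2- and 41.9, 34.5 and 45.2 CPM in the mKate2+ libraries. The SB28 libraries lay above the astrocyte libraries, and the log2 fold changes were 0.67 ± 0.13 (edgeR adjusted P = 0.00318) and 0.57 ± 0.16 (edgeR adjusted P = 0.015), below the fold threshold, with 0.50 (edgeR adjusted P = 0.0626) without mKate2+ replicate 3. Per length, Ifit2 stood at 11.5 ± 0.652 RPKM in mKate2- cells and Ifit3 at 0.301 ± 0.0464 RPKM, whereas in astrocytes the levels were 7.31 ± 1.10 and 4.67 ± 1.41 RPKM. The window upstream of Ifit2 held a GAS core and no ISRE core, while those of Ifit1 and Ifit3 held ISRE cores. The part of these cores in the levels was not tested. Reads shared with near-identical Ifit copies are not assigned by counting of unique hits, so the levels of Ifit1 and Ifit3 are uncertain to that extent.

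**Figure D3:**
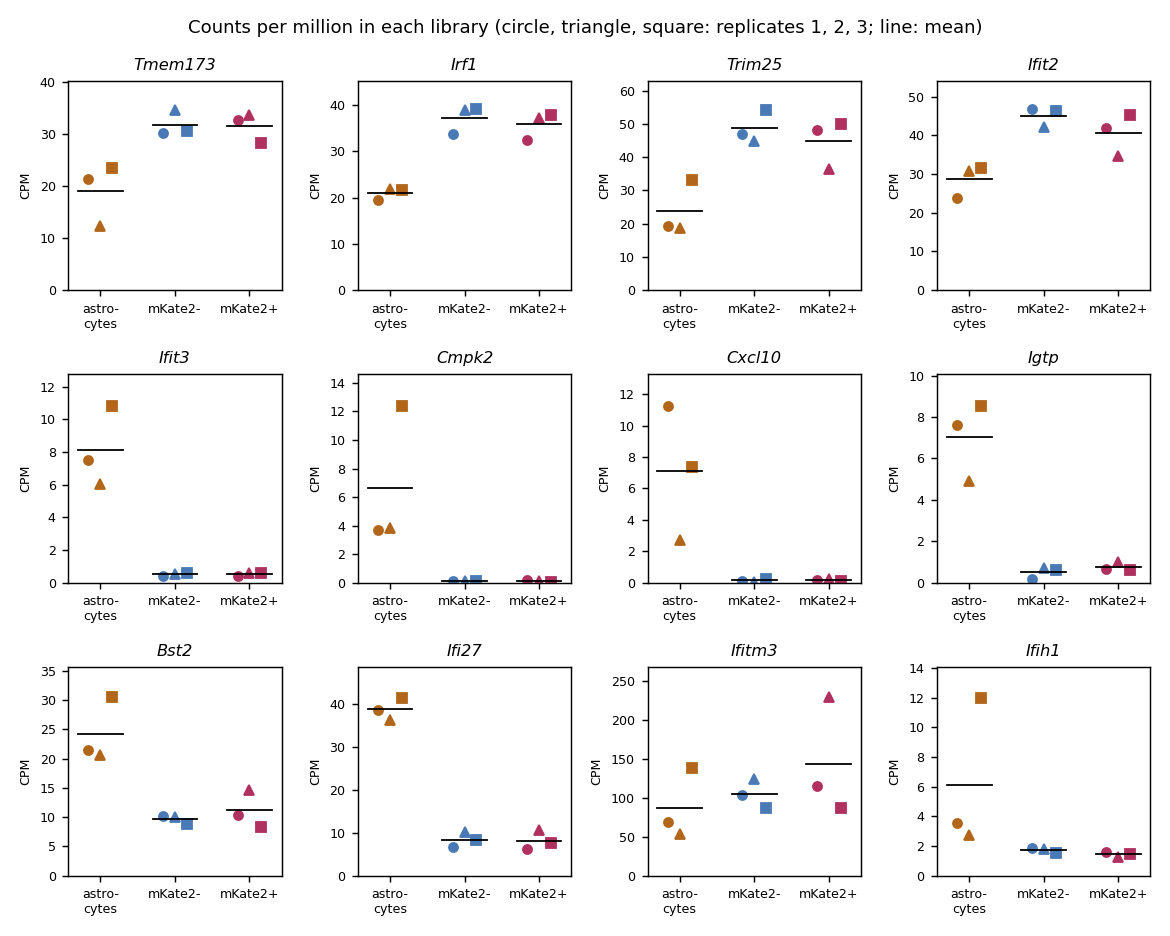
CPM of 12 genes in each of the 9 libraries (circle, triangle and square for replicates 1, 2 and 3; line for the group mean; each axis starts at 0). Tmem173, Irf1, Trim25 and Ifit2 sit higher in all 6 SB28 libraries than in astrocytes, Ifit3, Cmpk2, Cxcl10, Igtp, Bst2, Ifi27 and Ifih1 sit lower, and Ifitm3 overlaps.

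Cmpk2 and Rsad2, neighbours on chromosome 12 that encode a mitochondrial nucleotide kinase and the antiviral enzyme viperin, were close to absent from SB28 cells. Cmpk2 measured 3.72, 3.82 and 12.4 CPM in astrocytes, from 91, 125 and 435 counts. It had 3, 4 and 3 counts in mKate2- cells and 6, 5 and 1 counts in mKate2+ cells. The log2 fold changes were -5.88 ± 0.66 (edgeR adjusted P = 0.000184) and -5.80 ± 0.75 (edgeR adjusted P = 0.000476), and -5.07 and -5.02 without astrocyte replicate 3. Rsad2 had 25, 23 and 117 counts in astrocytes, 1, 0 and 2 in mKate2- cells and 2, 0 and 2 in mKate2+ cells. It was called lower in both comparisons, and a fold is not given from so few counts.

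Bst2, which encodes the virus-tethering protein tetherin, was expressed in both cell types at different levels. It measured 21.5, 20.6 and 30.6 CPM in astrocytes, 10.2, 10.1 and 8.91 CPM in the mKate2- and 10.4, 14.7 and 8.40 CPM in the mKate2+ libraries. It was 2.46-fold lower in mKate2- cells (log2 fold change -1.30 ± 0.18, edgeR adjusted P = 0.000569) and 2.04-fold lower in mKate2+ cells (-1.03 ± 0.27, edgeR adjusted P = 0.0123), and the second fell short of the fold threshold without astrocyte replicate 3 (-0.86), mKate2+ replicate 1 (-0.96) or mKate2+ replicate 3 (-0.85). Ifitm3 measured 69.3, 53.3 and 138.8 CPM in astrocytes, 103.6, 123.9 and 87.4 CPM in the mKate2- and 115.3, 229.7 and 87.0 CPM in the mKate2+ libraries. Its groups overlapped, and it passed the test in neither comparison (log2 fold changes of 0.29 ± 0.33 and 0.82 ± 0.46, edgeR adjusted P = 0.469 and 0.159). Without astrocyte replicate 3 these were 0.78 and 1.30, with edgeR adjusted P values of 0.00624 and 0.0345. In mKate2+ cells the value was 0.26 (edgeR adjusted P = 0.593) without mKate2+ replicate 2 and 0.20 (edgeR adjusted P = 0.718) with a gene length trend removed. Ifitm2 likewise passed neither test (edgeR adjusted P = 0.217 and 0.0966), and its log2 fold change in mKate2- cells went from 0.20 to -0.10 once a gene length trend was removed, as did that of Ifitm3 to -0.05. The dynamin-like antiviral GTPase genes Mx1 and Mx2 stayed below 0.6 CPM in each library and were not tested.

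The OAS family, whose products sense double-stranded RNA and trigger its decay or act without enzyme activity, was low throughout. Oas1a reached 4 counts and Oas2 reached 2 counts in astrocyte replicate 3, and neither had more than 1 count in any other library. Oasl1 (0.428 to 2.49 CPM) and Oasl2 (0.948 to 6.38 CPM) were detected in astrocytes and lower in SB28 cells, with log2 fold changes of -3.28 and -2.94 in mKate2- cells (edgeR adjusted P = 0.0191 and 0.00934). Without astrocyte replicate 1 or 3, both genes and Rsad2 no longer passed the filter, and without replicate 3 the number of members called lower was 11 in each comparison. In mKate2- cells Oasl1 also lost its call without replicate 1 of that group, and its log2 fold change was -4.57 without replicate 2.

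Isg15, a ubiquitin-like modifier that is among the classic interferon-induced genes, was near 1 CPM, at 0.981, 0.550 and 2.22 CPM in astrocytes, 0.478, 0.836 and 0.704 CPM in the mKate2- and 0.416, 1.5 and 0.468 CPM in the mKate2+ libraries. The groups overlapped, and the gene passed the filter only against mKate2+ cells, where it did not pass the test (edgeR adjusted P = 0.52). Usp18, the protease that removes ISG15 and restrains the interferon receptor, measured 0.613, 0.581 and 2.16 CPM in astrocytes, 0.0736, 0.306 and 0.134 CPM in the mKate2- and 0.0832, 0.0764 and 0.146 CPM in the mKate2+ libraries. It lay below the filter, although the SB28 libraries did not overlap the astrocyte libraries.

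Cxcl10, the chemokine that attracts T cells bearing CXCR3, was detected in astrocytes and nearly absent from SB28 cells. It measured 11.2, 2.75 and 7.37 CPM in astrocytes, 0.110, 0.0836 and 0.268 CPM in the mKate2- and 0.194, 0.229 and 0.117 CPM in the mKate2+ libraries, from 3 to 9 counts in each SB28 library. The log2 fold changes were -5.51 ± 0.70 (edgeR adjusted P = 0.000341) and -5.19 ± 0.64 (edgeR adjusted P = 0.000369), and the first was -6.14 without mKate2- replicate 3. Replicate 1, not replicate 3, was the highest astrocyte library for this gene. Exons of Cxcl10 overlap those of Art3 on the opposite strand.

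The GBP and IRG GTPases, which act on vacuoles that hold pathogens, were lower or did not pass the test. Igtp measured 7.61, 4.89 and 8.54 CPM in astrocytes, 0.184, 0.697 and 0.637 CPM in the mKate2- and 0.666, 0.993 and 0.644 CPM in the mKate2+ libraries. Its log2 fold changes were -3.75 ± 0.49 (edgeR adjusted P = 0.000397) and -3.10 ± 0.36 (edgeR adjusted P = 0.000297), with shared exonic sequence with Irgm2 on the same strand as a limit. Gbp2 was lower in both comparisons (log2 fold changes of -1.60 and -1.75, edgeR adjusted P = 0.0217 and 0.0227), but the call was lost in both without astrocyte replicate 3, at -0.90 and -1.07. In mKate2- cells it was also lost without replicate 1, 2 or 3 of that group (-1.59, -1.5 and -1.71), and in mKate2+ cells without replicate 1 or 2 (-1.52 and -1.82). Irgm1, at 10.7 to 25.5 CPM in the 9 libraries, passed neither test, and Gbp3 and Ifi47 were not tested.

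Ifi27, which encodes a mitochondrial membrane protein, had the smallest P value of the members in mKate2- cells. It measured 38.6, 36.3 and 41.5 CPM in astrocytes, 6.77, 10.1 and 8.28 CPM in the mKate2- and 6.13, 10.6 and 7.70 CPM in the mKate2+ libraries. The level was 4.57-fold and 4.49-fold lower (log2 fold changes of -2.19 ± 0.18 and -2.17 ± 0.24, edgeR adjusted P = 4.14e-05 and 0.00022), and it was well above the filter in each group. Parp14, an ADP-ribosyltransferase gene, measured 6.01, 5.04 and 7.91 CPM in astrocytes, 0.552, 0.947 and 0.737 CPM in the mKate2- and 0.472, 0.535 and 0.468 CPM in the mKate2+ libraries. Its log2 fold changes were -3.05 ± 0.33 (edgeR adjusted P = 0.000163) and -3.60 ± 0.32 (edgeR adjusted P = 9.03e-05). The other PARP genes moved less. Parp9 and Parp12 passed neither test, and Dtx3l, the ubiquitin ligase partner of PARP9 whose exons overlap those of Parp9 on the opposite strand, had log2 fold changes of -0.44 and -0.59 (edgeR adjusted P = 0.143 and 0.0445).

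Of the remaining genes, Rtp4 and Xaf1 were called lower in both comparisons, with log2 fold changes of -1.69 and -2.79 in mKate2- cells and -2.09 and -2.96 in mKate2+ cells. Xaf1 stood at -3.86 in mKate2+ cells without mKate2+ replicate 1. Ifi35 passed neither test (edgeR adjusted P = 0.137 and 0.238). Ifi44 had no count in astrocyte replicate 1 and 0.428 and 0.996 CPM in the other two, and it was not tested.

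The upstream parts of the pathway were then examined in a separate list of 42 genes, of which 28 were tested against astrocytes. In mKate2- cells 4 (14.3%) were lower and 1 (3.57%) higher, against 22.4% and 11.5% of all genes, and in mKate2+ cells 4 (14.3%) were lower and 2 (7.14%) higher, against 22.8% and 12.2%. By adjusted P value alone, 12 were lower and 6 higher in mKate2- cells (33.8% and 29.3% of all genes), and 10 were lower and 3 higher in mKate2+ cells (32.1% and 28.0%). With the fold threshold, 7 of 8 tested DNA sensing genes, 4 of 5 RNA sensing genes and 5 of 5 receptor genes were not called in either comparison. Cgas, the gene of the DNA sensor, measured 2.04, 1.80 and 3.33 CPM in astrocytes, 2.02, 1.92 and 1.98 CPM in the mKate2- and 2.64, 0.815 and 1.35 CPM in the mKate2+ libraries, with overlapping groups (edgeR adjusted P = 0.5 and 0.368). Tbk1 measured 35.2, 40.2 and 39.2 CPM in astrocytes, 34.5, 33.0 and 31.6 CPM in the mKate2- and 35.7, 24.3 and 33.8 CPM in the mKate2+ libraries, and passed neither test (edgeR adjusted P = 0.158 and 0.26). Irf3 had log2 fold changes of -0.42 and -0.52 (edgeR adjusted P = 0.0465 and 0.0375), and the edgeR adjusted P values were 0.0732 and 0.0806 without astrocyte replicate 1. They also exceeded 0.05 without any 1 of the mKate2- libraries in mKate2- cells, and in mKate2+ cells without astrocyte replicate 3 or mKate2+ replicate 1 or 3. With no filter on low counts they were 0.0927 and 0.0713, and with the replicate block 0.056 and 0.0738. Mavs had log2 fold changes of 0.36 and 0.30 (edgeR adjusted P = 0.0174 and 0.0594), and the first adjusted P value rose above 0.05 without astrocyte replicate 2 (0.0631) or mKate2- replicate 2 (0.0596) or 3 (0.0676).

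Enpp1, whose product degrades the cGAS product outside the cell, was called lower in both comparisons. It measured 3.11, 4.74 and 16.8 CPM in astrocytes and had 2, 2 and 3 counts in mKate2- cells and 2, 0 and 2 counts in mKate2+ cells. The edgeR adjusted P values were 0.000321 and 0.000503, and a fold is not given from so few counts. No SB28 library exceeded 1 CPM for Enpp1, so it passed the filter through astrocytes and had to be lower. The counts of lower genes given above for this list include it. Samhd1, whose product depletes nucleotides that viruses need, measured 27.5, 35.3 and 41.2 CPM in astrocytes, 64.3, 64.9 and 71.0 CPM in the mKate2- and 65.9, 55.9 and 72.5 CPM in the mKate2+ libraries. It was higher in SB28 cells but under the fold threshold (log2 fold changes of 0.96 and 0.98, edgeR adjusted P = 0.000824 and 0.0018), and both values were 1.09, past that threshold, without astrocyte replicate 3. Samhd1 also passed it with no filter on low counts (1.02 and 1.04), with a gene length trend removed (1.03 and 1.11) and, in mKate2+ cells, without mKate2+ replicate 2 (1.05). Trex1, the cytosolic DNA exonuclease, had no count in any of the 9 libraries, and its exons overlap those of Atrip on the same strand, so the count of 0 does not show absence. Dhx58, a regulator of the RNA sensors, was lower in both comparisons (log2 fold changes of -1.2 and -1.84, edgeR adjusted P = 0.00692 and 0.00222).

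Transcripts of the interferon genes in the list were not detected beyond single reads. Of the 10 interferon genes in the list, 8 had no count in any library. Ifnb1 had 1 count in 1 mKate2- library, and Ifnk had 1 count in 1 astrocyte and 1 mKate2+ library. A count of 0 allows up to 3 counts, or 0.0764 to 0.123 CPM in these libraries, for counting error only. Reads shared between similar gene copies are not assigned by counting of unique hits, so counts of the Ifna genes are uncertain to that extent. Both genes of the type I interferon receptor were expressed. Ifnar1 measured 80.6, 78.9 and 90.5 CPM in astrocytes, 77.8, 86.5 and 90.9 CPM in the mKate2- and 87.4, 66.8 and 89.6 CPM in the mKate2+ libraries (edgeR adjusted P = 0.734 and 0.834). Ifnar2 ranged from 25.9 to 40.0 CPM, with log2 fold changes of -0.47 (edgeR adjusted P = 0.00988) and -0.22 (edgeR adjusted P = 0.241), and Ifngr1, of the interferon-gamma receptor, had -0.46 and -0.51 (edgeR adjusted P = 0.00863 and 0.0118). Ifngr2, the other gene of that receptor, measured 56.1, 53.4 and 57.0 CPM in astrocytes, 27.1, 30.1 and 28.1 CPM in the mKate2- and 29.3, 31.0 and 26.4 CPM in the mKate2+ libraries. It was lower in SB28 cells, just under the fold threshold (log2 fold changes of -0.95 and -0.86, edgeR adjusted P = 0.000209 and 0.00109), and with upper-quartile normalization the first was -1.03, past that threshold.

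Among the signal transducers, Jak1 was abundant and passed neither test (124.4, 145.6 and 214.3 CPM in astrocytes, 164.6 to 192.6 CPM in the mKate2- and 144.4 to 180.1 CPM in the mKate2+ libraries). Jak2 was lower in both comparisons, with log2 fold changes of -1.14 and -1.23 (edgeR adjusted P = 0.00113 and 0.000984). These lay near the fold threshold, with 95% intervals of -1.57 to -0.71 and -1.67 to -0.80. The negative regulators split. Socs3 was lower (log2 fold changes of -1.43 and -1.33, edgeR adjusted P = 0.000502 and 0.00136), the phosphatase gene Ptpn2 was higher (1.02 and 1.10, edgeR adjusted P = 0.000341 and 0.000451), and Socs1, which inhibits the JAK kinases, was higher at 0.85 (edgeR adjusted P = 0.0215) and 1.04 (edgeR adjusted P = 0.0124), past the fold threshold in mKate2+ cells. These calls lay near the threshold. Ptpn2 fell below 1 in mKate2- cells without astrocyte replicate 1 (0.97) or 2 (0.94), and Socs1 in mKate2+ cells without astrocyte replicate 2 (0.99) or 3 (0.79) or mKate2+ replicate 2 (0.93). With upper-quartile normalization both of these calls ended as well, each at 0.94. Without astrocyte replicate 1, Socs1 rose to 1.16 in mKate2- cells, and its edgeR adjusted P value there was between 0.0515 and 0.0672 without astrocyte replicate 2 or any 1 of the mKate2- libraries.

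To ask whether SB28 cells that carried astrocyte mitochondria differed in these genes from those that did not, mKate2+ and mKate2- cells were compared. Of the 41 genes, 19 passed the filter, and the other 22 were too low in both groups to be tested. With thresholds of 1.5-fold, 0.05 for the unadjusted P value and 50 for the mean count, 0 of the 19 were higher and 0 were lower, against 0.194% and 0.169% of the 11854 genes tested. By edgeR's adjusted P value below 0.05, 0 were called in either direction, as for all genes (0% and 0%), and the smallest edgeR adjusted P value of a member was 0.923. At an unadjusted P value below 0.05, again 0 members were called, compared with 0.759% of all genes higher and 1.27% lower, and DESeq2 called 0 members. The median log2 fold change was -0.06 over the 19 genes and 0.00 over all genes tested, with 7 above 0 and 12 below.

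**Figure D4:**
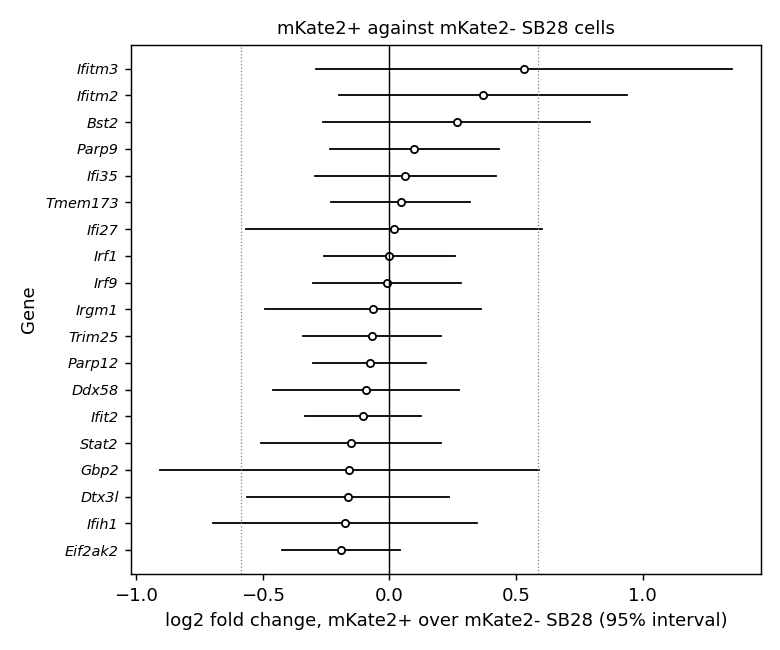
Log2 fold change of the 19 tested genes in mKate2+ over mKate2- SB28 cells, with 95% intervals; dotted lines mark a 1.5-fold change. Each interval includes 0, and those of Ifitm3, Ifitm2, Bst2, Ifi27 and Gbp2 also reach beyond a 1.5-fold increase.

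The intervals bound how large a difference could have gone undetected. For Tmem173 the log2 fold change was 0.04, with a 95% interval of -0.23 to 0.32, or 0.852 to 1.25 times the mKate2- level. For Irf1 the interval was 0.836 to 1.2 times, for Irf9 0.811 to 1.22 times, for Ifit2 0.793 to 1.09 times and for Trim25 0.790 to 1.15 times. Stat2 ranged from 0.703 to 1.15 times and Ddx58 from 0.728 to 1.21 times. The lower genes were less well bounded, with Ifih1 at 0.617 to 1.27 times and Gbp2 at 0.534 to 1.51 times. A P value that misses the threshold does not show that the groups were alike.

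Eif2ak2 and Parp12 were the 2 of the 19 genes for which each mKate2+ library lay below each mKate2- library, and 0 lay above, compared with 6.67% and 2.16% of all genes tested. Eif2ak2 measured 34.4, 36.0 and 34.2 CPM in mKate2- cells and 30.8, 24.9 and 33.0 CPM in mKate2+ cells, which corresponds to a log2 fold change of -0.19 (95% interval -0.42 to 0.04). Parp12, which encodes an antiviral ADP-ribosyltransferase, measured 15.4, 15.5 and 16.6 CPM in mKate2- cells and 14.6, 13.9 and 15.1 CPM in mKate2+ cells, corresponding to a log2 fold change of -0.08 (95% interval -0.30 to 0.15).

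The largest estimated increases were those of Ifitm3, Ifitm2 and Bst2, and they rested on 1 library. Ifitm3 had a log2 fold change of 0.53 (95% interval -0.29 to 1.35), Ifitm2 of 0.37 (95% interval -0.20 to 0.94) and Bst2 of 0.27 (95% interval -0.26 to 0.79). Without mKate2+ replicate 2 the values were -0.05, -0.02 and -0.05. Without mKate2+ replicate 3, which leaves replicates 1 and 2, Ifitm3 was called higher at 0.79 by fold change and unadjusted P value, with an edgeR adjusted P value of 0.771. Ifitm2, Ifitm3, Isg15 and Bst2 were the 4 members with the shortest exonic length, at 655, 678, 756 and 903 bases, and each was highest of the 6 SB28 libraries in mKate2+ replicate 2. In all, 6 members were highest there, including Ifi27 (1467 bases) and Igtp (2022 bases). This library stood apart from its group, with chi-square per degree of freedom of 133.9 and 121.1 against replicates 1 and 3. Replicates 1 and 3 gave 15.8 between them. After removal of a trend with gene length, the log2 fold changes were 0.25 for Ifitm3, 0.11 for Ifitm2 and 0.06 for Bst2.

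In the upstream list, 27 of the 42 genes were tested between the SB28 groups, and 0 were called by any of the thresholds. The log2 fold change was -0.27 for Cgas (95% interval -1.16 to 0.61), -0.04 for Tbk1 (-0.32 to 0.25), -0.11 for Irf3 (-0.36 to 0.15) and 0.24 for Ifnar2 (-0.05 to 0.52). Dhx58 had the largest estimate of this list, at -0.65 (-1.35 to 0.05), with 1.25, 1.56 and 1.84 CPM in mKate2- cells and 1.14, 1.04 and 0.673 CPM in mKate2+ cells. Of the 27 genes tested, Dhx58, Ikbke and Irf3 were those with each mKate2+ library below each mKate2- library, compared with 6.67% of all genes tested. The 95% interval of each of these genes included 0. The other genes of this list with the smallest P values were Ikbke (-0.31), Traf3 (-0.15), Socs1 (0.18) and Irf2 (0.11), each with an edgeR adjusted P value of 0.923.

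The cores were set beside the calls in mKate2- cells for members in the promoter table. The ISRE core was upstream of 7 of the 13 called lower and of 6 of the 17 not called or not tested. Of the 7, only Bst2 and Gbp2 had a tumor library above 1 CPM, and the others had to be lower. Of the 6, Oas1a, Isg15 and Gbp3 were not tested. Ifitm2 and Irgm1 passed neither test, and Stat2 was lower by adjusted P value without reaching the fold threshold. The GAS core was upstream of 2 of the 13 called lower, Bst2 and Igtp. It was also upstream of 4 of the 17, namely Irf1, Ifit2, Eif2ak2 and Oas1a. Irf1 and Ifit2 were higher by adjusted P value in SB28 cells and held no ISRE core in this window. Eif2ak2 passed neither test. Trim25, the single gene called higher, held neither core. A link between core and direction was not tested.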

How the data were processed

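The deposited file holds raw counts of reads per gene. Per the labels and the study's methods, the authors trimmed adapters with Trimmomatic 0.36, mapped reads to GRCm38 with STAR 2.5.2b and counted unique gene hits with featureCounts of Subread 1.5.2. The annotation release and the strand setting of the counting are not given in the sources used here. The sort gates in the labels assign CellTrace Violet to the tumor cells and the methods assign it to the astrocytes, so libraries were taken by their titles. Names, positions and exonic lengths came from GENCODE M21, which names 49056 of the 49315 genes. Besides the overlaps given beside the results, exons of Irf1, Eif2ak2, Oasl1, Usp18, Ifi35, Cgas, Irf3, Dhx58 and Jak1 overlap genes on the opposite strand and those of Ifitm2, Rtp4 and Ifnar2 genes on the same strand, and the OAS, IFIT, IFITM and GBP families hold similar copies, so these counts are uncertain to that extent. The mKate2 transgene was not analysed here.

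A gene entered a comparison when 2 or more of its 6 libraries exceeded 1 CPM, and tests ran over the whole table with TMM normalization and edgeR 4.0.16's quasi-likelihood test in R 4.3.3, with Benjamini-Hochberg adjustment; thresholds followed the study's methods. Errors of log2 fold changes are standard errors, and intervals are 95% intervals of that fit. DESeq2 1.42.0, upper-quartile normalization, no filter, a fit to the 9 libraries, a replicate block, removal of a gene length trend (loess, span 0.3) and each library left out in turn were alternatives. Scripts were tested on simulated data. Same-group libraries differed by more than sampling noise (chi-square per degree of freedom 15.8 to 133.9). With 3 libraries a group, the spread between co-cultures limits precision more than depth.

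The 41 members, the list of 42 further pathway genes, the marker lists, the motifs and the tests were chosen with earlier results of these data known. All members are accounted for. Values in every library are given for 15 members of a set list, for the 5 members with the smallest P value in each direction among those called against astrocytes, and for any called between SB28 groups. Dhx58, Eif2ak2, Parp12, Ifit2 and Ifitm2 were detailed after their values were seen. Of the pathway list, 11 genes and the 3 with the smallest P value in each direction are named, and 1 further gene set to be named is not reported here. Promoters came from RefSeq and were shown for up to 4 genes.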

Additional observations from a re-analysis of the deposited data

How the results depend on the processing

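The 16 members called lower in mKate2- cells were the same 16 with DESeq2, upper-quartile normalization, the replicate block, a gene length trend removed and a fit to the 9 libraries, and so were the 16 in mKate2+ cells. With no filter on low counts 20 and 19 were lower (Bst2 was lost in mKate2+ cells), and with each library left out in turn the counts ranged from 11 to 16 in both comparisons, with Gbp2, Ifih1, Bst2, Oasl1, Oasl2 and Rsad2 as the genes lost. The number higher in mKate2- cells went from 1 to 0 with upper-quartile normalization and ranged from 0 to 1 with a library left out, since Trim25 lies at the fold threshold. The number higher in mKate2+ cells went from 0 to 1 with no filter on low counts, 1 with the replicate block and 1 with a gene length trend removed, each time Trim25, and ranged from 0 to 2 with a library left out, the second gene being Ifitm3 without astrocyte replicate 3. Between the SB28 groups the number higher ranged from 0 to 1 with a library left out (Ifitm3 without mKate2+ replicate 3) and was 0 in the other alternatives, as was the number lower in each. Over all genes tested, the numbers called between the SB28 groups were 23 higher and 20 lower, 62 and 21 with DESeq2, 13 and 33 with the replicate block, 224 and 35 with no filter, 46 and 13 in the fit to the 9 libraries, 12 and 19 with a gene length trend removed and 6 to 310 higher and 16 to 70 lower with a library left out. Where a left-out library leaves 2 in a group, the fit pools the spread. The replicate numbers were not treated as pairs, since same-numbered libraries did not deviate together in each pair (correlations of -0.205 to 0.329), and the pairing as a replicate block left 16 lower and 1 higher in both comparisons with astrocytes and 0 between the SB28 groups. Depth limits the members below 1 CPM, for which 3 counts correspond to 0.0764 to 0.123 CPM.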
